A study of Mus musculus with 8 samples.

Results

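The insulin and insulin-like growth factor (IGF) genes described here are 10 genes of the receiving side of the pathway, namely the receptors Igf1r and Insr, the receptor substrates Irs1 and Irs2, and the binding proteins Igfbp2, Igfbp3, Igfbp4, Igfbp5, Igfbp6 and Igfbp7. They were chosen by name, as the rows of the deposited counts whose Entrez Gene ID belongs to one of these symbols, and 10 of 10 were found among 24594 listed genes. Expression was measured by RNA sequencing in 4 libraries of luminal progenitors (LP) and 4 libraries of mature luminal cells, which the labels call luminal differentiated. Both fractions came from wild type C57BL/6J mice, were freshly sorted from the virgin mammary gland without treatment, and carried no transgene or other allele. The study's methods give the age of its mice as 12 to 20 weeks. Cells carrying the blood and endothelial markers TER-119, CD31 or CD45 were gated out, and the luminal cells were divided by the surface receptor c-Kit into a c-Kit high (LP) and a c-Kit low (mature) part. The fractions therefore differ in c-Kit by design, and each may hold luminal cells of the other kind that the gate on this receptor did not separate. The libraries held between 4410049 and 7791593 counts. The methods state 3 biological replicates per condition while 4 libraries per fraction were deposited, and the labels do not say whether each library came from a separate mouse, so that p-values measure the spread between these libraries. In each of the 4 replicate numbers the LP and the mature library carry a common identifier in their descriptions, but the labels do not say what it identifies, and the libraries were compared without pairing.

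The ligands IGF1, IGF2 and insulin act through receptor tyrosine kinases. The receptor encoded by Igf1r binds the IGFs, and the receptor encoded by Insr binds insulin and, in one of its splice forms, also IGF2. The active receptors phosphorylate the docking proteins IRS1 and IRS2, which recruit phosphoinositide 3-kinase (PI3K) and so activate the kinase AKT. IGF binding proteins hold the IGFs outside the cell with high affinity, and IGFBP7 is a relative with low affinity for them. In the mammary gland IGF1, made largely by the stroma and the liver, is needed for ductal growth, and IGFBP5 is best known there as a protein that rises during involution after lactation.

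Igf1r, Irs1 and Igfbp5 were higher in LP than in mature cells, by 6.98-fold, 4.68-fold and 62.7-fold in the fitted comparison. Insr, Irs2 and Igfbp7 did not pass the threshold. Igfbp2, Igfbp3, Igfbp4 and Igfbp6 had too few counts for the comparison and were left out of it by the filter on low counts. Thus 3 of the 6 members tested were called higher in LP and 0 lower, at an adjusted p under 0.05 in edgeR's quasi-likelihood test, adjusted by Benjamini-Hochberg over the 12816 genes that passed a filter on low counts. Over all genes tested, 24.7% were called, 10.9% higher in LP and 13.8% lower. At an unadjusted p under 0.05 the members lower in LP numbered 1, Insr, and DESeq2 also called 0 members lower. The libraries of the fractions did not overlap for 4 of the 6 members, with LP above for Igf1r, Irs1 and Igfbp5 and mature above for Insr. Among all tested genes 14.0% did not overlap with LP above and 15.5% with mature above. The median log2 fold change, LP over mature, was 1.91 for the 6 members that passed the filter and 0.00 for all tested genes. This median depends on which members the filter kept. In a fit with no filter on low counts, Igfbp2 had a log2 fold change of 1.13. In that fit Igfbp3, Igfbp4 and Igfbp6 had -4.79, -3.72 and -6.52. These estimates rest on few counts. The median of 1.91 therefore describes the tested members only and does not show a lean of all members towards LP.

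In the mouse assembly GRCm38 (mm10), Igf1r lies on the plus strand at chr7:67952257-68233668 and Insr on the minus strand at chr8:3150922-3279649. Irs1 lies on the minus strand at chr1:82233105-82291439 and Irs2 on the minus strand at chr8:10984681-11008929. Igfbp2 on the plus strand at chr1:72824480-72852474 and Igfbp5 on the minus strand at chr1:72858065-72874865 are neighbours whose 3′ ends face each other across 5590 bp. The upstream bases of 4 members are shown because 3 of them are the members called higher in LP, and the fourth, Irs2, is the paralogue of Irs1 that was not called. Each sequence is the 250 bases before the RefSeq transcript start (GRCm38.p6), written 5′ to 3′ on the strand of the gene, so that its last base lies 1 base before the start. In Igf1r the capitals mark GGGCGG, the GC box. In Irs1 and Irs2 they mark the longest runs of bases that both windows share on the strand of the gene, of which there were 2, each of 10 bases. In Igfbp5 they mark the sequence TATTTAA, which resembles a TATA box.
Igf1r, chr7:67952007-67952256, plus strand: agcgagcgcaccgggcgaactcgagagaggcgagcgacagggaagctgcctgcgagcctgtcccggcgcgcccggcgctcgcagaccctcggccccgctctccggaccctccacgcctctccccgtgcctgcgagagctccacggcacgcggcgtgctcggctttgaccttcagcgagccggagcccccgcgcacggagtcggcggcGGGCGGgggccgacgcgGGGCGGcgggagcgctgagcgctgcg
Irs1, chr1:82291440-82291689, minus strand: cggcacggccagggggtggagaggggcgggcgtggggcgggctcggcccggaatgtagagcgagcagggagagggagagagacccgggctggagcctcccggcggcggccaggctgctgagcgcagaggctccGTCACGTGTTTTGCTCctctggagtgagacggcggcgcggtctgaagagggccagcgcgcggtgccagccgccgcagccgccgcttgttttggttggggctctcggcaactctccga
Irs2, chr8:11008930-11009179, minus strand: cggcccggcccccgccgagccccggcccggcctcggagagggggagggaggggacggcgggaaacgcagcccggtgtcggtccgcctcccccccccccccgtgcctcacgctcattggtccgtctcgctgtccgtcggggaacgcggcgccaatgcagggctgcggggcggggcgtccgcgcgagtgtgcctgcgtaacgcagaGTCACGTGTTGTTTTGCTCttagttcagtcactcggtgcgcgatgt
Igfbp5, chr1:72874866-72875115, minus strand: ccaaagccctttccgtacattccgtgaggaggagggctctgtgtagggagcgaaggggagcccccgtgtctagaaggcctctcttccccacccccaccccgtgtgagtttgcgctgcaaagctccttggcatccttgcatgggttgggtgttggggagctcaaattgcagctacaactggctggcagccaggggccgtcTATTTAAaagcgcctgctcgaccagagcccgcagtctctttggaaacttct

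The first run that the windows of Irs1 and Irs2 shared, GTCACGTGTT, began 117 bases before the start in Irs1 and 46 bases before it in Irs2. On either strand it was present in 23 of 32851 RefSeq windows of the same length, or 0.0700%. The second, TGTTTTGCTC, began 111 bases before the start in Irs1 and 37 bases before it in Irs2, overlapped the end of the first in both windows, and was present in 21 windows, or 0.0639%. The first run contains the palindromic E-box CACGTG, which 6.02% of all windows held and which was also found in Igfbp2. Igf1r had 2 GC boxes, 42 CpG dinucleotides and 77.6% G and C in its window. Irs1 had 28 CpG and 72.4%, and Irs2 34 CpG and 72.8%. Igfbp5 was less rich, with 10 CpG and 58.8%, against medians of 6 CpG and 52.4% over all windows. Its TATTTAA began 51 bases before the start and was absent from the windows of the other members with a sequence, while 4.18% of all windows held it. GGGCGG was found in 5 of the 9 members with a window (Igf1r, Irs1, Irs2, Igfbp2 and Igfbp7) and in 32.7% of all windows. TATAAA was found in Igfbp4 and Igfbp6 and in 12.4% of all windows, CCAAT in Irs2 and Igfbp6 and in 33.9%, and the FoxO sequence TGTTTAC in none of the members and in 3.17%. Both strands were searched, the motifs were chosen with the windows in view, and a match is a description of letters and not of a bound site.

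The fractions were checked by genes fixed as markers. Kit, which encodes the sorted receptor, was at 522 to 832 normalized CPM, that is, counts relative to the library total after correction by edgeR's TMM factors, in LP. Of 4 LP markers 3 were higher in LP, and of 6 mature luminal markers, including the hormone receptor genes Pgr and Prlr, 6 were lower in LP. Of 4 markers of all luminal cells, Krt8, Krt18 and Krt19 were called lower in LP and Epcam was not called. Their summed CPM was 11280 to 12490 in LP and 22790 to 40820 in mature libraries. Of other cell types, the summed CPM of 8 basal markers was 4.02 to 18.0 in LP and 8.86 to 51.1 in mature libraries, with the highest value in mature replicate 3. Oxtr alone added 1.11 to 11.9 CPM to the LP sums and 0 to 3.18 CPM to the mature sums. The other basal markers each had a higher mean in mature libraries, and none of the basal markers tested was called. The sum of 6 fibroblast markers was 7.35 to 41.7 in LP and 27.0 to 179 in mature libraries, and most of its high values in mature replicates 1 and 2 came from Dcn alone, at 132 and 154 CPM. The collagen genes Col1a1, Col1a2 and Col3a1 were at no more than 5.48 CPM in any library. The immune, endothelial and pericyte sums did not exceed 13.2 in any library. Genes induced by dissociation and heat summed to 692 to 1236 CPM in LP and to 2683 to 14410 in mature libraries, and 6 of these 7 genes were lower in LP. Mature replicate 3 stood apart, since its stress sum was 14410 while the other mature libraries lay between 2683 and 3116. Most of this sum came from the heat shock genes Hspa1a and Hspa1b, at 8253 and 3779 CPM. Of the other stress genes, Fos and Egr1 were also highest in mature replicate 3. Jun was highest in mature replicate 1, and Atf3 and Dusp1 in mature replicate 2. The Kit level of mature replicate 3 was 27.2% of the LP mean, against 6.28% to 11.2% in the other mature libraries. Values without mature replicate 3 are therefore given for Igfbp5, for Igfbp7 and for the number of members called. In sorted populations, RNA from fewer cells of one kind and less RNA per cell cannot be told apart.

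Igf1r, the IGF1 receptor gene, was counted 810, 900, 885 and 561 times in LP replicates 1 to 4 and 89, 42, 177 and 119 times in mature replicates 1 to 4. As normalized CPM these values were 118, 129, 147 and 77.8 in LP and 12.5, 11.0, 25.6 and 17.9 in mature cells. The lowest LP library, replicate 4, was above the highest mature library, replicate 3, and the fractions did not overlap. The mean was 118 ± 29.3 CPM in LP and 16.8 ± 6.57 CPM in mature cells (SD, n = 4 each). The fitted log2 fold change was 2.80 with a standard error (SE) of 0.299 and an adjusted p of 0.000326 in edgeR's quasi-likelihood test. By mean CPM the gene ranked 1597 of 24594 in LP and 7640 in mature cells.

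Insr, the insulin receptor gene, pointed the other way. It was at 31.4, 23.2, 33.2 and 17.6 CPM in LP and at 48.1, 36.5, 41.3 and 35.7 CPM in mature cells, from raw counts of 127 to 216 and 139 to 342. Every mature library was above every LP library, although the gap between LP replicate 3 and mature replicate 4 was small. The means were 26.3 ± 7.27 CPM in LP and 40.4 ± 5.69 CPM in mature cells (SD, n = 4 each). The log2 fold change of -0.62 (SE 0.242) had an adjusted p of 0.0868 in edgeR's test and did not pass the threshold. An antisense gene, Gm16180, overlaps Insr on the opposite strand, and since the strand setting of the counting is not given in the sources used here, reads of the pair cannot be told apart.

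**Figure D1:**
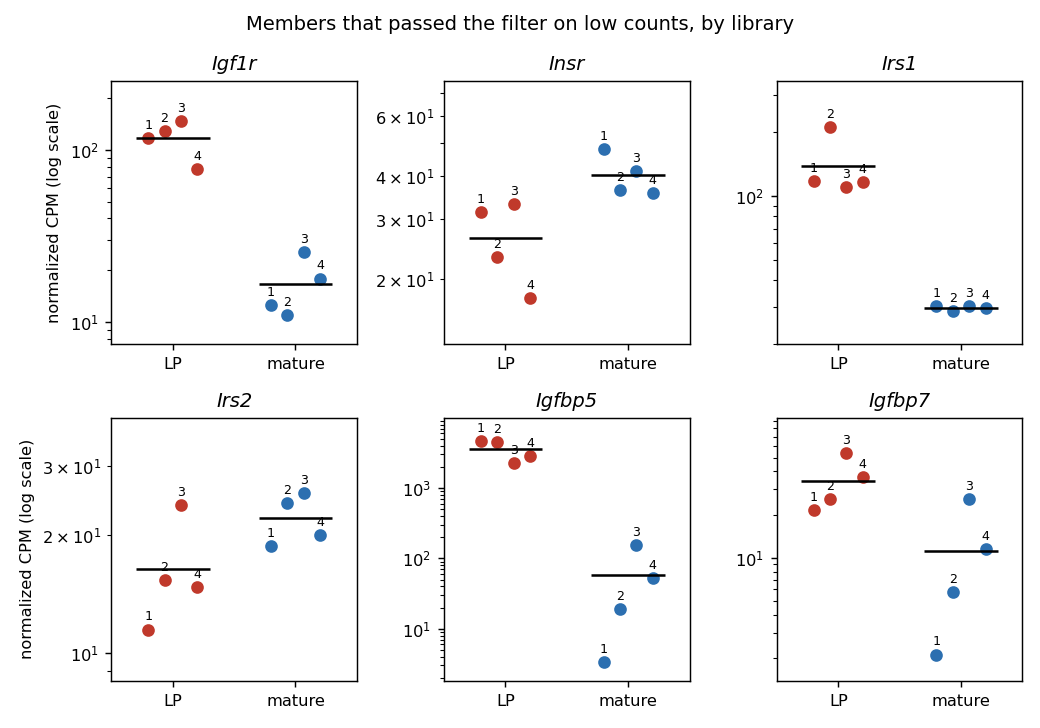
Normalized CPM (log scale, with its own range in each panel) of the 6 members that passed the filter on low counts, in 4 LP (red) and 4 mature (blue) libraries. Points are libraries with their replicate numbers and black lines are means. The fractions are apart for Igf1r, Insr, Irs1 and Igfbp5 and overlap for Irs2 and Igfbp7.

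Because both receptors were read from the same libraries, their ratio does not depend on how the libraries were scaled. With 0.5 added to each count, Igf1r counts were 3.74, 5.58, 4.42 and 4.40 times those of Insr in LP replicates 1 to 4. In mature cells the ratio was 0.261, 0.305, 0.620 and 0.503. In each LP library the Igf1r count exceeded the Insr count, and in each mature library it was below it. The mean log2 ratio differed by 3.50 (SE 0.317) between the fractions, or 11.3-fold, with a two-sided exact permutation p of 0.0286 and the same value after Benjamini-Hochberg adjustment over 4 ratios. This is the smallest p that 4 libraries against 4 allow. Since the genes differ in length, the level of 1 receptor relative to the other is read from CPM per kilobase of exon. On that scale Igf1r was at 7.02 ± 1.75 and Insr at 1.92 ± 0.529 in LP, and at 0.998 ± 0.391 and 2.94 ± 0.414 in mature cells (SD, n = 4 each).

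Irs1, a docking protein gene downstream of both receptors, was at 118, 211, 110 and 116 CPM in LP and at 30.2, 28.6, 30.2 and 29.5 CPM in mature cells. LP replicate 2 was the highest library, and the mature libraries lay close together. The raw counts were 812, 1465, 664 and 839 in LP and 215, 109, 209 and 196 in mature cells. The means were 139 ± 48.0 CPM and 29.6 ± 0.745 CPM (SD, n = 4 each). The log2 fold change was 2.23 (SE 0.227) with an adjusted p of 0.000269 in edgeR's test. Irs1 and Igfbp5 belong to the LP gene set that the study drew from these same samples, so their membership there is not independent evidence of their direction. Igf1r is not in that set. For its comparison of these fractions the paper states a stricter adjusted p threshold than the one used here. Absence from the set is therefore not evidence of no difference.

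Irs2, the paralogous docking protein gene, was at 11.5, 15.4, 23.9 and 14.7 CPM in LP and at 18.7, 24.2, 25.6 and 20.0 CPM in mature cells. LP replicate 3 lay within the range of the mature libraries, and the fractions overlapped. The means were 16.4 ± 5.31 CPM and 22.1 ± 3.26 CPM (SD, n = 4 each). The log2 fold change of -0.43 (SE 0.287) had an adjusted p of 0.302 in edgeR's test. The noncoding gene 9530052E02Rik on the opposite strand overlaps Irs2, but it had at most 3 counts in any library. For Irs1 the overlapping gene on the other strand, Gm9747, was not analysed here.

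The substrates thus stood in a different ratio in the fractions. The count of Irs1 was 10.2, 13.6, 4.60 and 7.88 times that of Irs2 in LP replicates 1 to 4, and 1.61, 1.18, 1.18 and 1.47 times in mature replicates 1 to 4. The ranges were apart, and the LP values spread more widely than the mature ones. The mean log2 ratio differed by 2.64 (SE 0.352), or 6.24-fold, with an exact two-sided permutation p of 0.0286, and 0.0286 after adjustment over the 4 ratios. In CPM per kilobase, Irs1 was at 15.2 ± 5.25 and Irs2 at 2.59 ± 0.839 in LP, while in mature cells they were at 3.24 ± 0.0815 and 3.50 ± 0.516 (SD, n = 4 each) and overlapped.

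**Figure D2:**
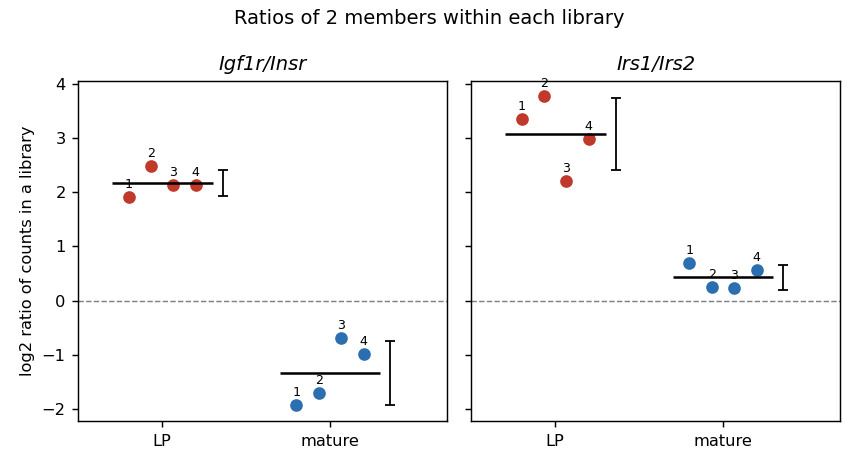
Log2 ratio of the counts of Igf1r to Insr (left) and of Irs1 to Irs2 (right) within each of 4 LP and 4 mature libraries, with 0.5 added to each count. Points are libraries with their replicate numbers, black lines are means, bars are SD, and the dashed line marks equal counts. Igf1r to Insr is above 0 in each LP library and below 0 in each mature library, and Irs1 to Irs2 is above 0 in each library of both fractions.

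Igfbp5, a secreted binding protein gene, made up most of the binding protein RNA in LP. It was counted 31965, 31818, 13762 and 20616 times in LP and 24, 72, 1057 and 354 times in mature cells. The normalized values were 4641, 4574, 2285 and 2860 CPM in LP and 3.38, 18.9, 153 and 53.3 CPM in mature cells. Each LP library was far above each mature library, and the mature libraries themselves ranged widely, with replicate 3 highest and replicate 1 lowest. The means were 3590 ± 1199 CPM in LP and 57.1 ± 67.0 CPM in mature cells (SD, n = 4 each). The log2 fold change was 5.97 (SE 0.960) with an adjusted p of 0.00183 in edgeR's test. Without mature replicate 3 it was 7.16 with an adjusted p of 0.000490, and with the replicate number as a block 6.81 with an adjusted p of 0.00572. In LP the gene ranked 14 of 24594 by mean CPM, and in mature cells 3524.

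Igfbp7, which encodes the low-affinity relative, was at 21.6, 25.7, 53.8 and 36.4 CPM in LP and at 2.11, 5.78, 25.6 and 11.4 CPM in mature cells. Mature replicate 3 lay within the lower part of the LP range, above LP replicate 1, and the other mature libraries were below every LP library. The means were 34.4 ± 14.4 CPM and 11.2 ± 10.3 CPM (SD, n = 4 each). The log2 fold change of 1.60 (SE 0.611) had an adjusted p of 0.0811 in edgeR's test and did not pass the threshold. It passed without mature replicate 3, at 2.43 with an adjusted p of 0.0109, and by DESeq2, at 1.63 with an adjusted p of 0.0235. It also passed by the likelihood ratio test, at 1.61 with an adjusted p of 0.0348, and with the replicate number as a block, at 1.98 with an adjusted p of 0.0112. Its call thus depended on this library, on the test and on whether the libraries were paired. Polr2b, a broadly expressed gene on the opposite strand that overlaps Igfbp7, had 577 to 645 counts in LP and 226 to 387 in mature cells. Igfbp7 had fewer, with 149 to 324 in LP and 15 to 177 in mature cells. Since the strand setting of the counting is not given, reads of this pair cannot be told apart where the genes overlap. The part of Polr2b reads in the Igfbp7 counts was not tested.

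Igfbp6, a binding protein with a preference for IGF2, was detected only in mature libraries, with 24, 5, 8 and 9 counts in replicates 1 to 4 and 0 in each LP library. These counts correspond to 3.38, 1.31, 1.16 and 1.36 CPM. Pooled over the libraries there were 46 counts in mature cells, at least 16.9-fold higher than the 3 counts over all LP libraries that a count of 0 allows. Such limits cover counting error only. In a fit with no filter on low counts, where 7.91% of 18975 genes were called lower in LP, Igfbp6 had an adjusted p of 0.0108 in edgeR's test. The fibroblast marker Dcn was at 132 CPM in mature replicate 1, where Igfbp6 was highest. Dcn was at 154 CPM in mature replicate 2, where Igfbp6 had 5 counts. The fibroblast marker Lum was at 2.67 to 5.52 CPM in mature libraries and at 0 to 2.61 CPM in LP, without overlap. Dcn, Col1a1, Col1a2, Col3a1 and Pdgfra overlapped between the fractions, and Col1a1 was at 0 in mature replicates 1 and 2. The part of RNA from other cells in the Igfbp6 counts was not tested.

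The remaining binding proteins were near the limit of detection. Igfbp2 had 11, 14, 0 and 0 counts in LP and 0, 0, 9 and 2 in mature cells. Igfbp3 had 14 counts in mature replicate 3 and 0 in each of the other 7 libraries. Igfbp4 had 3 counts in mature replicate 2, 2 in mature replicate 3 and 0 in the other 6 libraries. With no filter, their adjusted p-values in edgeR's test were 0.653, 0.175 and 0.194. A difference between the fractions was not detectable at this depth for these 3 genes, since 3 counts correspond to between 0.415 and 0.786 CPM in a single library. Igfbp2 had its LP counts in replicates 1 and 2, where its neighbour Igfbp5 was highest, and 0 in LP replicates 3 and 4, where Igfbp5 still had 13762 and 20616.

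In CPM per kilobase of exon, the 6 binding proteins summed to 792, 784, 425 and 506 in LP and to 5.34, 9.29, 49.0 and 19.7 in mature cells. Igfbp5 made up 89.5% to 97.6% of this sum in LP and 10.5% to 51.9% in mature cells. Igfbp7 made up 2.26% to 10.5% in LP and 32.7% to 51.5% in mature cells. Igfbp6 added 56.8% of the smallest sum, that of mature replicate 1, and between 2.12% and 12.7% in the other mature libraries. The binding protein RNA of LP was thus mainly Igfbp5, and the much smaller amount in mature cells was shared between Igfbp5, Igfbp7 and Igfbp6. The ratio of Igfbp5 to Igfbp2 was higher in LP by 6.47 on the log2 scale (SE 1.16) and that of Igfbp3 to Igfbp5 lower, at -8.39 (SE 0.898), each with an exact permutation p of 0.0286 and the same adjusted value. Igfbp2 was at 0 in 4 of 8 libraries and Igfbp3 in 7 of 8, and neither had more than 14 counts in any library. Where such a count was 0, the ratio held only Igfbp5 and the fixed added count. Both ratios thus mainly repeated the difference in Igfbp5, and their p-values do not test Igfbp2 or Igfbp3.

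**Figure D3:**
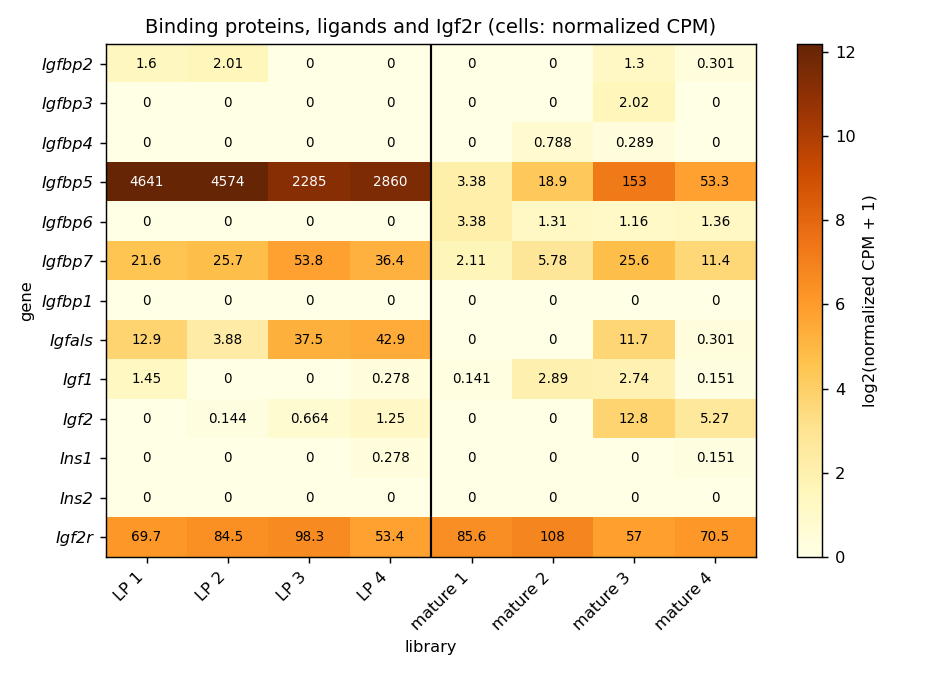
Normalized CPM of 6 member binding proteins, Igfbp1, Igfals, the ligands and Igf2r in each of 4 LP and 4 mature libraries. Colour is log2(CPM + 1) and each cell prints the CPM. Igfbp5 is at 2285 to 4641 CPM in LP, Igfbp3, Igfbp4 and Igfbp6 are at 0 in each LP library, and Igf2r is similar in range in both fractions.

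Across the members, the order by mean CPM per kilobase in LP was Igfbp5 (598), Igfbp7 (28.4), Irs1 (15.2), Igf1r (7.02), Irs2 (2.59), Insr (1.92) and Igfbp2 (0.489), with Igfbp3, Igfbp4 and Igfbp6 at 0. In LP the values of Igfbp7 and Irs1, of Irs2 and Insr, and of Igfbp2 and the genes at 0 overlapped between neighbours in this order, and the other neighbours were apart. In mature cells the order was Igfbp5 (9.50), Igfbp7 (9.28), Irs2 (3.50), Irs1 (3.24), Insr (2.94), Igfbp6 (1.62), Igf1r (0.998), Igfbp2 (0.217), Igfbp3 (0.161) and Igfbp4 (0.0610), and each pair of neighbours overlapped. Igf1r thus stood above Insr and Irs2 in LP and below both in mature cells.

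Mature replicate 3, with the highest Kit among the mature libraries, also had the highest Igf1r, Igfbp5 and Igfbp7. Relative to the LP mean, Igf1r was at 21.7% in it and at 9.35% to 15.2% in the other mature libraries. Igfbp5 was at 4.25% against 0.0940% to 1.49%, and Igfbp7 at 74.3% against 6.14% to 33.3%. Irs1 did not share this pattern, with 20.6% to 21.8% in the 4 mature libraries. The LP markers Cd14 and Elf5 were at 2.28% and 51.6% of the LP mean in mature replicate 3, and at no more than 1.56% and 20.3% in the other mature libraries. The LP marker Aldh1a3 was at 55.6% in mature replicate 3 but was highest in replicate 4, at 59.3%, with 9.41% and 30.6% in replicates 1 and 2. The basal marker sum, 51.1 CPM, was highest in the same library, with the basal keratin gene Krt5 at 15 counts. The part of LP cells, basal cells or cell stress in these values was not tested. Without mature replicate 3, the members called higher in LP were 4 and those called lower 0. Over all 13031 genes tested in that fit, 1668 were called higher in LP and 1746 lower. With all libraries the calls were 1394 and 1767 of 12816 genes.

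**Figure D4:**
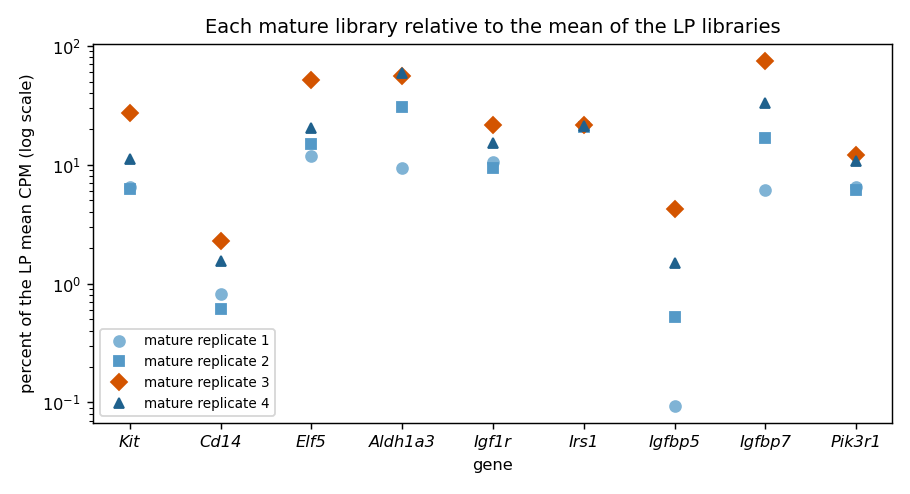
Normalized CPM of each of 4 mature libraries as a percent of the mean of 4 LP libraries (log scale), for the LP markers Kit, Cd14, Elf5 and Aldh1a3 and for Igf1r, Irs1, Igfbp5, Igfbp7 and Pik3r1. Mature replicate 3 (orange diamonds) is highest for each gene but Aldh1a3, which is highest in mature replicate 4, and Irs1, for which the mature libraries lie between 20.6% and 21.8%.

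The other genes of the pathway were taken from a list of 52 genes, of which 37 were tested. Of these, 2 were called higher in LP, 5 were called lower and 30 did not pass the threshold, and their median log2 fold change was -0.09 against 0.00 for all tested genes. The share called, 7 of 37, can be set beside the 24.7% of all genes. Each gene called had an absolute log2 fold change above 1, and each is named here.

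The ligands were nearly absent from both fractions and none was tested. Igf1 was at no more than 2.89 CPM in any library and Ins1 at no more than 0.278 CPM, and Ins2 had 0 counts in all. Igf2 reached 12.8 CPM in mature replicate 3 and 5.27 CPM in mature replicate 4, and was at no more than 1.25 CPM in the other libraries. Igf2r, whose product clears IGF2 from the cell surface, was at 53.4 to 98.3 CPM in LP and 57.0 to 108 CPM in mature cells, with a log2 fold change of -0.07 (SE 0.242) and an adjusted p of 0.863 in edgeR's test. Igfbp1 had 0 counts in each library. Of the genes for binding protein proteases and their inhibitors, 3 of 6 were tested and 1 was lower in LP, namely Stc2, which encodes stanniocalcin 2, an inhibitor of the protease that cleaves IGF binding proteins. It was at 11.2 to 101 CPM in LP and 309 to 453 CPM in mature cells, a log2 fold change of -2.98 (SE 0.559) with an adjusted p of 0.00378 in edgeR's test. LP replicate 1 was the highest LP library, and without it the log2 fold change was -3.70. The protease genes Pappa and Pappa2 were at no more than 1.96 and 1.205 CPM in any library and were not tested.

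Of the genes for adaptors and receptor feedback, 13 of 16 were tested, 0 were higher in LP and 3 were lower, where 13.8% of all genes tested were lower. Grb14, which encodes an adaptor that inhibits the insulin receptor, was at 2.01 to 4.98 CPM in LP and 24.1 to 41.5 CPM in mature cells, a log2 fold change of -3.15 (SE 0.387, adjusted p 0.000555 in edgeR's test). Ptpn1, the gene of the phosphatase PTP1B that acts on both receptors, was at 53.6 to 122 CPM in LP and 227 to 372 CPM in mature cells, a log2 fold change of -1.71 (SE 0.257, adjusted p 0.00127 in edgeR's test). Socs3, a feedback inhibitor induced by cytokines, had a log2 fold change of -1.12 (SE 0.358, adjusted p 0.0426 in edgeR's test). Its libraries overlapped, with 21.0 to 42.3 CPM in LP and 33.5 to 116 CPM in mature cells, and its call was lost in 12 of 21 alternative fits. Its lowest mature library was replicate 3, the one with the highest stress sum. The other 10 tested genes of this list did not pass the threshold, among them further genes whose products restrain insulin signaling, such as Grb10 with a log2 fold change of 0.65 and Ptpn2 with 0.48.

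Of the PI3K and AKT genes, 13 of 14 were tested and 1 was called in each direction. Pik3r1, which encodes the regulatory subunit p85α through which PI3K binds IRS proteins, was at 784, 711, 921 and 1007 CPM in LP and at 55.7, 52.3, 103 and 92.8 CPM in mature cells. The fractions were far apart, with a log2 fold change of 3.49 (SE 0.267, adjusted p 0.000104 in edgeR's test), or 11.3-fold. Inppl1, which encodes the phosphatase SHIP2 that acts on the lipid product of PI3K, was at 5.15 to 20.0 CPM in LP and 33.9 to 41.4 CPM in mature cells, a log2 fold change of -1.61 (SE 0.367, adjusted p 0.00971 in edgeR's test). Of the genes whose products AKT holds back, 6 of 7 were tested and 1 was called. Tbc1d4, which encodes AS160, an AKT substrate in insulin-stimulated glucose transporter traffic, was at 77.4 to 135 CPM in LP and 19.4 to 27.7 CPM in mature cells, 4.01-fold higher in LP in the fit (adjusted p 0.000425 in edgeR's test). The libraries did not overlap for 6 of the 37 pathway genes tested, which were the genes called other than Socs3. Among all tested genes 14.0% did not overlap with LP above and 15.5% with mature above. Pik3r1 is in the LP set and Stc2 and Ptpn1 are in the mature set that the study drew from these samples, so these sets are not independent evidence of their directions.

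**Figure D5:**
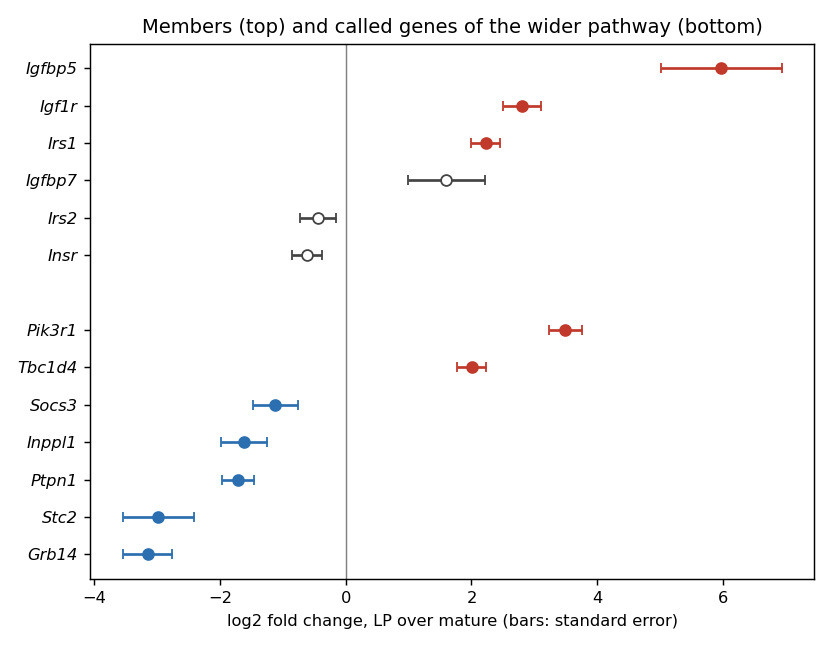
Log2 fold change, LP over mature, of the 6 tested members (top) and of the 7 wider pathway genes called (bottom), from the quasi-likelihood fit over 12816 genes. Bars are standard errors, filled points passed an adjusted p of 0.05 (red higher in LP, blue lower) and open points did not. Igfbp5 has the largest change among the members, at 5.97, and Insr and Irs2 lie just below 0.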

How the data were processed

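RNA from sorted LP and mature luminal cells was amplified from 500 pg and sequenced as reads of 51 bp. The authors trimmed the reads with cutadapt (4.2 in the submitters' processing notes), aligned them to mm10 with bowtie2 (2.3.5.1 in those notes, 2.2.9 in the methods), and deposited raw counts per gene with no normalization. The counting program, its annotation, its strand setting and its treatment of reads that match several genes are not given in the sources used here. Amplification adds copies that counts cannot separate from molecules, and bowtie2 does not split reads across introns.

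Of the deposited Entrez IDs, 24570 matched RefSeq symbols. Exon lengths, strands and overlapping genes came from the GENCODE annotation of GRCm38, and gene positions from RefSeq. Counts were normalized by TMM in edgeR 4.0.16 (R 4.3.3), filtered with filterByExpr to 12816 genes, and compared between 4 LP and 4 mature libraries by the quasi-likelihood test with Benjamini-Hochberg adjustment and a threshold of 0.05. The SE was the absolute log2 fold change over the square root of F. Per-library ratios, with 0.5 added to each count, were tested by exact permutation in scipy 1.17.1. Genes were filtered, tested and adjusted over the whole table. All 10 members are named, with each of the 52 wider pathway genes that had an adjusted p under 0.05 and a log2 fold change beyond 1 in either direction, at most 12 of them, the ligands, Igf2r and Igfbp1. Kit, Cd14, Elf5, Pgr and Prlr served as checks of the fractions. The members and lists were chosen with earlier results of these data known. Other genes are named for overlap with a member, as markers, or as genes of the wider list that were not called, after their values were seen. Alternatives were RLE and upper-quartile factors, library totals alone, DESeq2 1.42.0, the likelihood ratio test, other filters, a replicate block, thinned counts, and each library or replicate number left out. The LP against mature comparison was tested on simulated counts of 12816 genes, where a 4-fold change had been given to 200. It recovered 70.5% of these, and 4.08% of its calls were false. The simulated libraries differed in scale only by their totals and held no effect shared by a replicate number. In the deposited data 24.7% of genes were called, so these rates may not carry over to them.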

Additional observations from a re-analysis of the deposited data

Results flagged for a closer look

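Among 25 sets of 4 libraries examined, the CPM of each member and the 4 ratios in a fraction where the values were not all equal, 3 had a library whose gap to its nearest neighbour, divided by the whole range, was above Dixon's critical value for 4 values, where chance alone gives 1.25. For Irs1 in LP the share of the range was 0.924, because LP replicate 2 was at 211 CPM and the other LP libraries were at 110 to 118 CPM. For Igfbp6 in mature cells it was 0.909, because mature replicate 1 was at 3.38 CPM and the others were at 1.16 to 1.36 CPM. For Igfbp3 in mature cells it was 1.00, because only mature replicate 3 had a count.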

How the results depend on the processing

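Over 21 alternative fits Igf1r, Irs1 and Igfbp5 were called higher in LP in each, and Insr and Irs2 were called in none. Over the fits with libraries left out, the log2 fold change was 2.63 to 3.11 for Igf1r, 1.96 to 2.33 for Irs1 and 5.43 to 7.31 for Igfbp5. That of Igfbp7 was 1.26 to 2.43 and passed the threshold without mature replicate 3 (2.43) and without replicate 3 (2.11), and with all libraries by DESeq2 (1.63), by the likelihood ratio test (1.61) and with a replicate block (1.98), with adjusted p-values of 0.0109 to 0.211 over its alternatives. With no filter on low counts 1 member, Igfbp6, was called lower in LP. The wider pathway genes called lower numbered 3 to 5 with libraries left out, 3 without replicate 4, when Inppl1 also missed the threshold (adjusted p 0.0609). Over all genes, those called higher numbered 736 to 1668 and those called lower 879 to 1746 with libraries left out. Scaling by library totals alone moved the median log2 fold change of all genes by 0.19 and gave 2031 higher and 1281 lower, against 1394 and 1767, with no change in a member's call. Lengths of the longest transcript in place of all exons changed the rank of 2 members in LP and 3 in mature cells.

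In their descriptions the same-numbered LP and mature libraries share an identifier in 4 of 4 pairs, and the labels do not say what it identifies. They deviated together weakly (r 0.0618 to 0.148, above 0.1 in 2 of 4 pairs), while 7 of 8 libraries correlated best with their own number, and the replicate block was kept as the alternative set at the start. With the block 1388 genes were higher and 1639 lower, and Igf1r was at 2.83, Irs1 at 2.16, Igfbp5 at 6.81, Insr at -0.65 and Irs2 at -0.47. The paired ratios kept their differences of 3.50 (Igf1r/Insr), 2.64 (Irs1/Irs2), 6.47 (Igfbp5/Igfbp2) and -8.39 (Igfbp3/Igfbp5), with a sign-flip p of 0.125, the smallest that 4 pairs allow. With 1 library left out the ratios differed by 3.30 to 3.71, 2.41 to 2.93, 5.74 to 7.16 and -9.17 to -7.89, each with an exact permutation p of 0.0571, the smallest that 3 against 4 allow. The ratios with Igfbp2 and Igfbp3 mainly repeat the difference in Igfbp5 in these alternatives too. Depth limits the statements on Igfbp2, Igfbp3, Igfbp4 and Igfbp6.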
